A study of Mus musculus with 12 samples.

Results

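Cd27 and 8 other genes for surface proteins that are used to sort blood stem cells and early progenitors were followed across 4 retroviral constructs in cultured mouse bone marrow. The genes were Cd27, Cd34, Flt3, Slamf1, Cd48, Procr, Tek, Ly6a and Cd93, chosen with earlier results of these data known. Each was represented by the brightest Affymetrix probe set that carried its symbol alone. Of the 9 genes, 8 had such a probe set, 1 each, out of 19938 genes measured in this way, and Ly6a was not analysed here. Cd27 entered the set because it was known to stand higher with 1 of the constructs than with the empty vector in these same arrays. Its values in that comparison are therefore given as a description that supports nothing, and its intervals there show only the spread between arrays.

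Adult mice of a strain labelled C57/BL6/C3H received 5-fluorouracil, a drug that spares resting stem cells, before marrow was taken, so every group shares that treatment. Whether stem cells were still enriched when RNA was taken was not measured. After 48 h of stimulation the cells were transduced on irradiated virus-producing GFP+E86 cells, and GFP-positive cells were sorted for RNA 96 h after transduction. The groups of 3 biological replicates received the empty vector MIG, the leukaemia fusion CALM-AF10, the same fusion lacking OM-LZ (CALM-AF10 ΔOM-LZ), or CALM(400-648)+AF10 (677-758), a fusion of 2 protein fragments called the minimal fusion below. OM-LZ is the octapeptide motif and leucine zipper of AF10, through which it binds the histone methyltransferase DOT1L, and the AF10 fragment of the minimal fusion is known to be that stretch. The labels do not say whether replicates came from separate mice, so p-values measure the spread between these samples, which may be partly technical.

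Blood formation runs from long-lived stem cells through multipotent progenitors to committed precursors, and these stages are told apart by the proteins on the cell surface. In mouse marrow SLAMF1 (CD150), the endothelial protein C receptor PROCR and the angiopoietin receptor TEK (TIE2) mark stem cells. CD34, the receptor tyrosine kinase FLT3 and the receptor CD27 appear as cells become multipotent progenitors, and CD48, a SLAM-family adhesion protein, is carried by progenitors and most later blood cells. CD27 belongs to the tumour necrosis factor receptor family, binds CD70 and signals through TRAF adaptor proteins, and lymphocytes carry it too. CD93 is a lectin-like receptor of early progenitors, early B cells and monocytes.

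The stretches upstream of Cd27 and Flt3 are shown because these genes had the same order of construct means. They come from RefSeq promoters of build GRCm38.p6, in which 7 of the 9 genes had an entry. Both are on the minus strand and are printed 5′ to 3′. The Cd27 stretch, chr6:125237137-125237277, holds the 141 bases from 250 to 110 bases before the listed start site, since the rest of that window lies within the gene's annotated span. The Flt3 stretch, chr5:147400490-147400739, holds the 250 bases before its start site. Capitals mark matches on either strand to the letters AACNG, the core bound by MYB, and GGAAG, a core bound by ETS factors, which do not overlap here.
Cd27: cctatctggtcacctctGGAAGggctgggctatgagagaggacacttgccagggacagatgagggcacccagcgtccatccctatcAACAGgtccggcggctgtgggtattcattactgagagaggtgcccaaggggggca
Flt3: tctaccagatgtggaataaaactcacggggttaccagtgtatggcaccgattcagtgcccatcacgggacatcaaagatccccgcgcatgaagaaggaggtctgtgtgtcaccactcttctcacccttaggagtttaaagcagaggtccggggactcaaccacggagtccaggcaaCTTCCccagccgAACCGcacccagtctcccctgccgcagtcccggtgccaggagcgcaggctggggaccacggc

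Each motif is common: AACNG was found in 74.2% and GGAAG in 64.1% of the same 250-base windows of 32851 promoters. The joint HOX and PBX letters TGATNNAT, present in 7.7% of windows, and the MEIS letters TGACAG, present in 15.9%, had no match in the 250 bases before either start site, which says only that these letters are not in that window.

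The deposited values were log2 intensities running from 2.88 to 14.27, and array medians lay between 6.58 and 6.69. A log2 step of 1 is a doubling of intensity. As a description of the labelled marrow, the stem cell factor receptor gene Kit read 9.86 to 11.21 and the granule gene Mpo 12.1 to 13.37 over the 12 arrays. The T cell receptor component Cd3e read 5.92 to 6.46, the NK receptor gene Ncr1 4.22 to 4.63 and the endothelial cadherin gene Cdh5 5.43 to 5.90. Nkg7 of the T and NK cell list read 11.1 to 12.14 and Pecam1 of the endothelial list 9.95 to 10.71, and both are known in other blood cells too. On that endothelial list Eng also read 9.26 to 10.74, Erg 9.38 to 10.28, Egfl7 8.13 to 9.09 and Tie1 7.84 to 8.82. Each value belongs to its own probe set, so these levels do not rank the genes and do not by themselves show which cells were present. Since the RNA is from mixed cells, fewer cells of a type and less RNA per cell cannot be told apart.

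Cd27 was highest with the minimal fusion, next with CALM-AF10, and lowest with CALM-AF10 ΔOM-LZ and MIG. The minimal fusion arrays read 9.77, 10.36 and 9.85, and the CALM-AF10 arrays 9.38, 9.01 and 9.09. The CALM-AF10 ΔOM-LZ arrays read 8.45, 7.95 and 8.36, and the MIG arrays 8.50, 8.03 and 7.65. Every minimal fusion array lay above every CALM-AF10 array, and every CALM-AF10 array above all 6 arrays of the other groups, whose own values overlapped. Group means were 9.99 (SD 0.32), 9.16 (SD 0.19), 8.26 (SD 0.26) and 8.06 (SD 0.42), n = 3 each.

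As a description, Cd27 stood 3.81-fold higher with the minimal fusion than with MIG (log2 difference 1.93, SE 0.23, 95% interval 1.42 to 2.44). It stood 2.14-fold higher with CALM-AF10 than with MIG (1.10, interval 0.59 to 1.61), while CALM-AF10 ΔOM-LZ differed from MIG by 0.20 (interval −0.31 to 0.70). Against CALM-AF10 ΔOM-LZ the minimal fusion stood 3.33-fold higher, and against CALM-AF10 1.78-fold higher (log2 difference 0.83, interval 0.33 to 1.34). These comparisons share arrays with the 1 through which Cd27 was chosen.

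**Figure D1:**
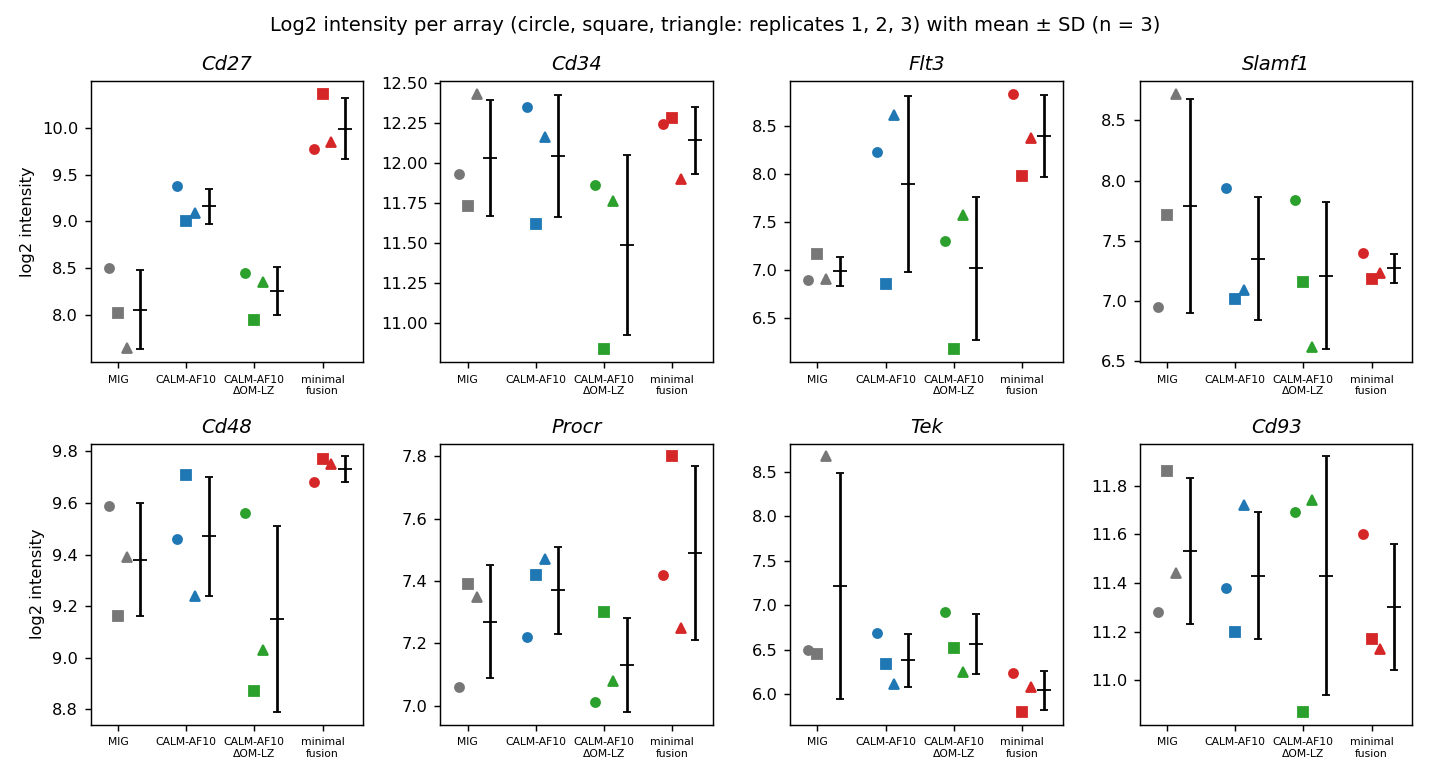
Log2 intensity (vertical axis) of the 8 measured genes in each of the 12 arrays, by construct (horizontal axis), with replicates 1, 2 and 3 as circle, square and triangle and black bars for the mean ± SD of 3 arrays. Cd27 separates into minimal fusion (9.77 to 10.36), CALM-AF10 (9.01 to 9.38) and the remaining arrays (7.65 to 8.50), and Tek is set apart in MIG replicate 3 (8.67).

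The comparison of CALM-AF10 with CALM-AF10 ΔOM-LZ uses neither group through which Cd27 was chosen, and asks what the fusion does with and without OM-LZ. Earlier results of these data were known when the members were chosen, so it is not an independent test. Cd27 stood 1.87-fold higher with the intact fusion (log2 difference 0.90, SE 0.23, interval 0.40 to 1.41), and the groups did not overlap. The SE and interval rest on the spread within groups over all 12 arrays. By limma, with Benjamini-Hochberg adjustment over 23410 probe sets, this did not pass (adjusted p = 1). An exact two-sided permutation test of the 6 arrays gave p = 0.1, the smallest that 3 arrays against 3 allow. In the limma fit, which did not pair arrays, no probe set passed (0%), and 528 had an unadjusted p under 0.05. Within replicate numbers, the Cd27 difference was 0.93, 1.06 and 0.73.

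Flt3, the receptor that supports multipotent and lymphoid-primed progenitors, had the same order of means as Cd27 with a wider spread. It read 8.84, 7.98 and 8.38 with the minimal fusion, 8.23, 6.86 and 8.62 with CALM-AF10, 7.31, 6.18 and 7.58 with CALM-AF10 ΔOM-LZ, and 6.90, 7.17 and 6.91 with MIG. The minimal fusion arrays all lay above those of MIG and of CALM-AF10 ΔOM-LZ, and CALM-AF10 overlapped with every other group, with its replicate 2 the lowest of its 3 arrays. The difference from MIG was 1.40 for the minimal fusion (2.64-fold, SE 0.45, limma adjusted p = 0.521) and 0.91 for CALM-AF10 (interval −0.09 to 1.90), and neither passed. CALM-AF10 ΔOM-LZ differed from MIG by 0.03 (interval −0.96 to 1.03). Between CALM-AF10 and CALM-AF10 ΔOM-LZ the difference was 0.88, and in same-numbered arrays it was 0.93, 0.67 and 1.03. It was 0.46 without CALM-AF10 ΔOM-LZ replicate 2 and 1.40 without CALM-AF10 replicate 2. Replicate 2 was the lowest array in both of these groups, so leaving out 1 of them breaks that same-numbered pair. The CALM-AF10 difference from MIG was 0.55 without CALM-AF10 replicate 3 and 1.43 without CALM-AF10 replicate 2.

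Cd48 differed less. It read 9.68, 9.77 and 9.75 with the minimal fusion, 9.46, 9.71 and 9.24 with CALM-AF10, 9.56, 8.87 and 9.03 with CALM-AF10 ΔOM-LZ, and 9.59, 9.16 and 9.39 with MIG. The minimal fusion arrays were above all of MIG and of CALM-AF10 ΔOM-LZ and had the smallest spread of the 4 groups (SD 0.05). Their difference from MIG was 0.36 (SE 0.18, adjusted p = 0.697) and from CALM-AF10 ΔOM-LZ 0.58 (1.50-fold, adjusted p = 0.935), and limma called neither.

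Cd34, a sialomucin of progenitors, was bright in all groups. It ran from 11.90 to 12.28 with the minimal fusion, 11.62 to 12.35 with CALM-AF10, 11.73 to 12.43 with MIG and 10.84 to 11.86 with CALM-AF10 ΔOM-LZ. The mean of the last group was 11.49 against 12.03 to 12.14 in the others, with its replicate 2 at 10.84 and its other arrays at 11.86 and 11.76. The minimal fusion exceeded it by 0.65 (1.57-fold, SE 0.29, adjusted p = 0.999) without overlap, and by 0.33 without that replicate 2. CALM-AF10 ΔOM-LZ differed from MIG by −0.54, and by −0.22 without its replicate 2. The minimal fusion differed from MIG by 0.11 (interval −0.53 to 0.74).

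**Figure D2:**
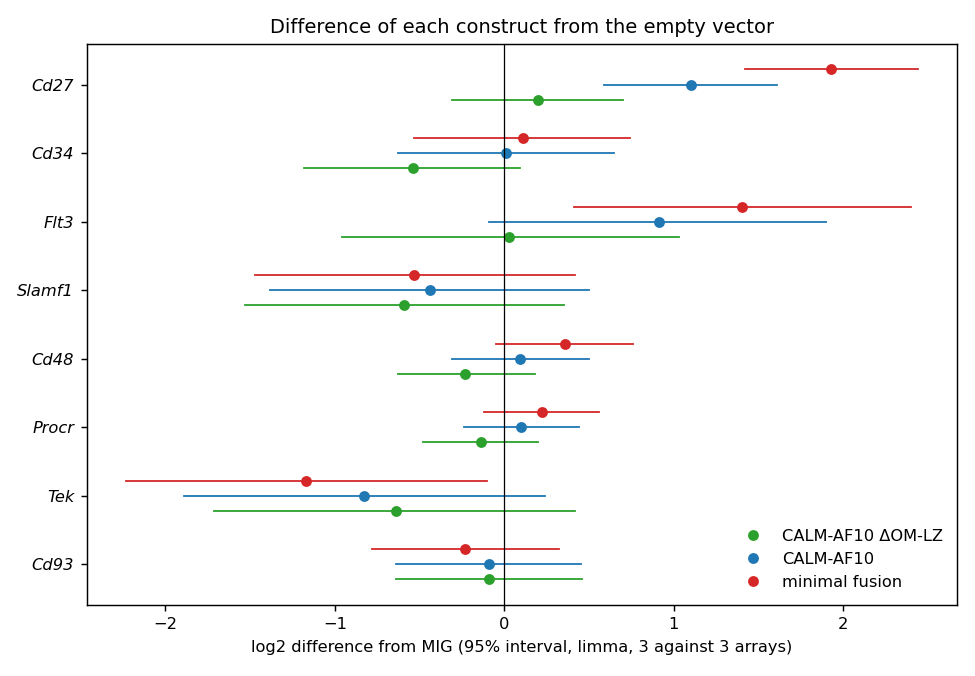
Log2 difference from MIG (horizontal axis) of the 8 genes for CALM-AF10 ΔOM-LZ, CALM-AF10 and the minimal fusion, with 95% intervals from limma on 3 against 3 arrays. Cd27, chosen on the minimal fusion, lies at 0.20, 1.10 and 1.93; among the other 7 genes the intervals leave out 0 for Flt3 and Tek with the minimal fusion alone.

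None of the 3 stem cell markers passed the test between any pair of constructs. Slamf1 read 6.95, 7.71 and 8.72 with MIG, and between 6.62 and 7.94 in the other 9 arrays, and all groups overlapped. With the minimal fusion it was lower by 0.53 (SE 0.43, adjusted p = 0.822), and without MIG replicate 3 the difference was −0.06. Procr varied least of the 8 genes, with a range of 0.79 over the 12 arrays. It read 7.42, 7.80 and 7.25 with the minimal fusion and 7.06, 7.39 and 7.35 with MIG, and differed by 0.22 (interval −0.12 to 0.56, adjusted p = 0.782).

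Tek read 6.24, 5.80 and 6.08 with the minimal fusion, 6.69, 6.34 and 6.11 with CALM-AF10, 6.92, 6.52 and 6.25 with CALM-AF10 ΔOM-LZ, and 6.50, 6.45 and 8.67 with MIG. A single array, MIG replicate 3, was far above the other 11. The minimal fusion arrays lay below all MIG arrays, by 1.17 on average (2.25-fold, SE 0.48, limma adjusted p = 0.604). Without MIG replicate 3 the difference was −0.44, against −1.17 with it. In the same way the differences of CALM-AF10 and CALM-AF10 ΔOM-LZ from MIG went from −0.83 and −0.64 to −0.09 and 0.09.

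MIG replicate 3 was also the array with the highest level of mast cell genes. Over 12 measured mast cell markers its mean log2 level was 11.55, against 9.21 and 9.68 in the other MIG arrays and 8.61 to 9.23 in minimal fusion arrays. Its mean over 11 megakaryocyte markers was 9.26, against 8.17 and 9.22 in the other MIG arrays and 7.69 to 8.06 with the minimal fusion. The IgE receptor gene Fcer1a read 12.75 in MIG replicate 3 and 10.57 and 10.81 in the other MIG arrays. CALM-AF10 replicate 1 and CALM-AF10 ΔOM-LZ replicate 1 also had high mast cell levels (10.67 and 11.02) and the highest Tek and Slamf1 values of their groups. Erythroid genes were also highest in MIG replicate 3. Over 9 measured erythroid markers, none of them a globin gene, MIG replicate 3 had a mean of 7.61, against 6.48 and 6.65 in the other MIG arrays and 6.38 to 7.14 in the remaining 9, with CALM-AF10 ΔOM-LZ replicate 1 at 7.14 and CALM-AF10 replicate 1 at 6.83. The part of these cells in the Tek and Slamf1 values was not tested. Endothelial markers, of which Tek is commonly one, had means of 6.88 to 7.16 over all 12 arrays, with MIG replicate 3 at 7.05.

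**Figure D3:**
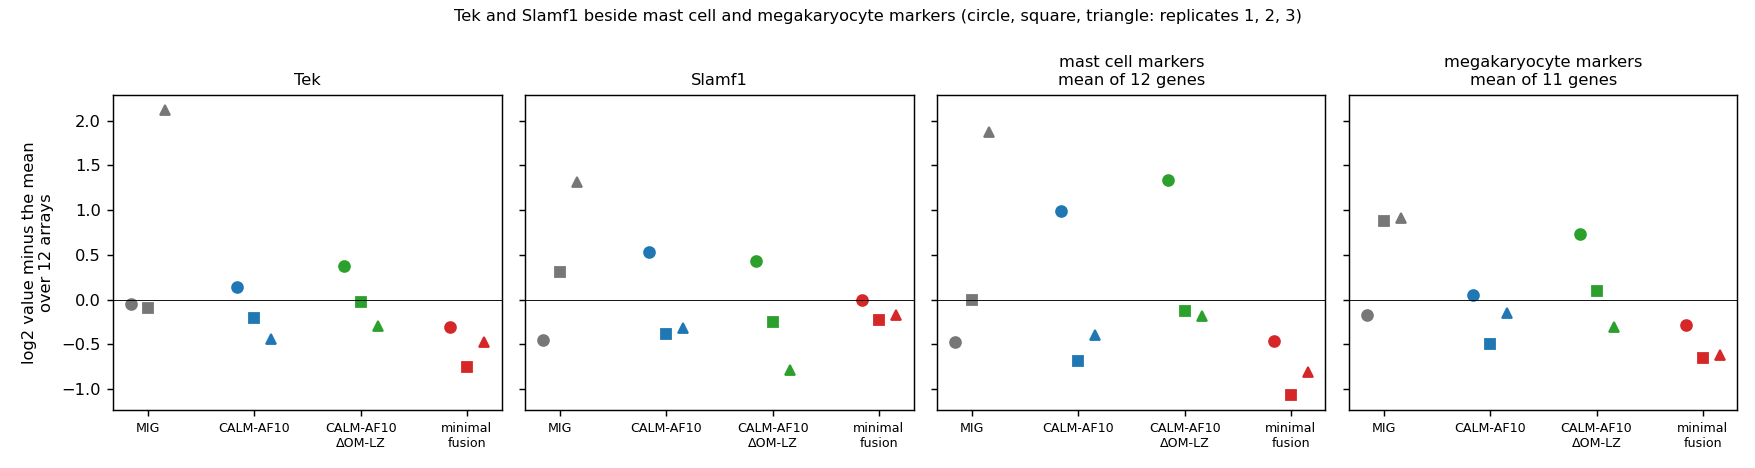
Tek, Slamf1, the mean of 12 mast cell markers and the mean of 11 megakaryocyte markers in each array, as log2 value minus the mean over the 12 arrays (vertical axis), by construct (horizontal axis), with replicates 1, 2 and 3 as circle, square and triangle. MIG replicate 3 is the highest array in all 4 panels, by a wide margin for Tek.

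Cd93 had the closest group means of the 8 genes, from 11.30 to 11.53. It lay at 11.13 to 11.60 with the minimal fusion, 11.20 to 11.72 with CALM-AF10, 10.87 to 11.74 with CALM-AF10 ΔOM-LZ and 11.28 to 11.86 with MIG, with overlap in every comparison. Its difference between the minimal fusion and MIG was −0.23 (interval −0.78 to 0.32, adjusted p = 0.873).

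Counted without Cd27, 4 of the 7 genes stood higher with the minimal fusion than with MIG and 3 lower, with a median of 0.11. Of all genes 52.1% stood higher, with a median of 0.01. Limma called 1 of the 8, Cd27, and 0.0342% of probe sets, and nothing is read from that call, since the choice of Cd27 used these arrays. Of the other 7 genes 0 were called. Groups did not overlap for 3 of the 7, where 12.1% of all probe sets did not. Of these Flt3 and Cd48 were higher (6.08% of probe sets) and Tek lower (6% of probe sets). An unadjusted p under 0.05 was given to 2 of the 7, Flt3 and Tek, against 7.61% of probe sets. The 7 genes were also chosen with earlier results of these data known, so these counts are a description and not a fair comparison with the shares.

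Between the minimal fusion and CALM-AF10 ΔOM-LZ, limma called 0 of the 8 and 0.0171% of probe sets. Of the 7 genes without Cd27, 4 did not overlap, against 7.78% of probe sets, and their median difference was 0.36. Flt3, Cd34 and Cd48 were higher (3.7% of probe sets) and Tek lower (4.09%). An unadjusted p under 0.05 was given to 4 of the 7, Cd34, Flt3, Cd48 and Procr, against 4.1% of probe sets. This comparison shares the minimal fusion arrays with the preceding one, and its counts are a description for the same reason.

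In the remaining pairs limma called 0 of the 8. For the 7 genes without Cd27, CALM-AF10 against MIG gave 0 without overlap (9.31% of probe sets) and 0 with an unadjusted p under 0.05 (5.26%). CALM-AF10 ΔOM-LZ against MIG gave 0 (8.04%) and 0 (3.96%) in the same order. CALM-AF10 against CALM-AF10 ΔOM-LZ gave 0 (6.76%) and 0 (2.26%), with Cd27, tested there as described, as the 1 member in each count of the 8. The minimal fusion against CALM-AF10 gave 0 (5.38%) and 0 (1.8%). Of probe sets, limma without the block called 0% in the first 3 of these pairs and 0.00427% in the last.

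CALM-AF10 and the minimal fusion were also averaged and set against MIG and CALM-AF10 ΔOM-LZ, that is, arrays with OM-LZ against arrays without it. As a description, Cd27 stood 2.67-fold higher with all 6 arrays above the other 6, and it was the 1 member called there, beside 0.0128% of probe sets called and 0.525% without overlap. Since its choice used some of these arrays, nothing is read from that call. Of the other 7 genes 0 were called, 0 did not overlap and 2, Flt3 and Cd48, had an unadjusted p under 0.05 (6.95% of probe sets). Flt3 stood 2.20-fold higher (log2 difference 1.14, SE 0.32, adjusted p = 0.448) with overlap.

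**Figure D4:**
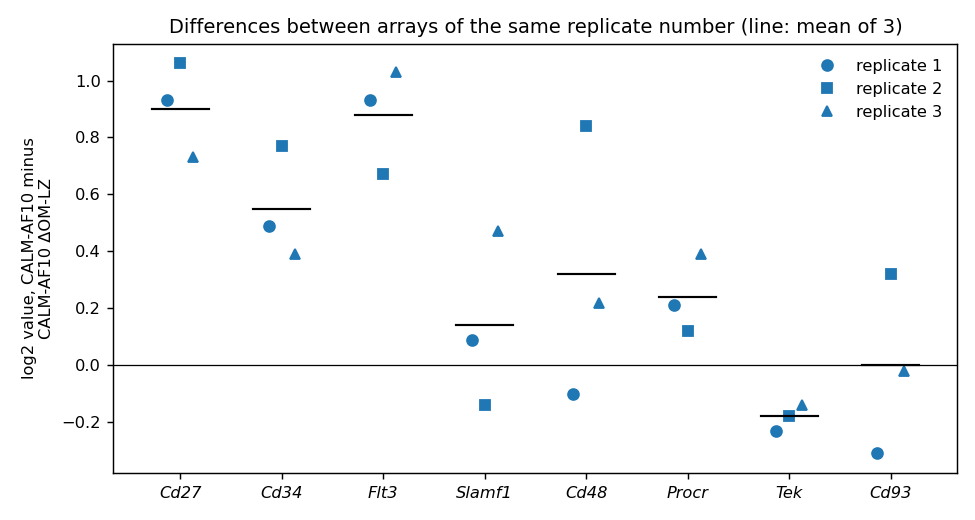
Log2 value of CALM-AF10 minus CALM-AF10 ΔOM-LZ (vertical axis) for arrays of the same replicate number, with the mean of the 3 differences as a line, for the 8 genes (horizontal axis). The 3 differences lie between 0.73 and 1.06 for Cd27, 0.67 and 1.03 for Flt3 and 0.39 and 0.77 for Cd34, and on both sides of 0 for Slamf1, Cd48 and Cd93.

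The genes whose profile over the 12 arrays was most like that of Cd27, among 19930 others, were Hoxa6, Septin3, Zc3hav1l, Dnmt3b and Hmga2. Pearson r with Cd27 was 0.95 for the homeobox gene Hoxa6, and 0.75 after the construct means were removed. It was 0.93 for the septin gene Septin3, for Zc3hav1l and for Dnmt3b, a DNA methyltransferase gene, and 0.92 for Hmga2, a chromatin protein gene of fetal stem cells. With the construct means removed, r was 0.58 for Septin3, 0.67 for Zc3hav1l, 0.73 for Dnmt3b and 0.65 for Hmga2. These genes had the highest r of many over the 12 arrays and are given as a description, and the arrays share 4 construct means. In group means, in the order MIG, CALM-AF10 ΔOM-LZ, CALM-AF10 and minimal fusion, Hoxa6 stood at 7.19, 7.19, 7.71 and 8.80, Dnmt3b at 7.76, 7.71, 8.25 and 8.42, and Hmga2 at 8.83, 8.92, 9.19 and 9.48. The log2 difference between the minimal fusion and MIG was 1.61 for Hoxa6 (SE 0.16), 0.66 for Dnmt3b (SE 0.15) and 0.65 for Hmga2 (SE 0.14), given without a test because likeness to Cd27 chose these genes.

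**Figure D5:**
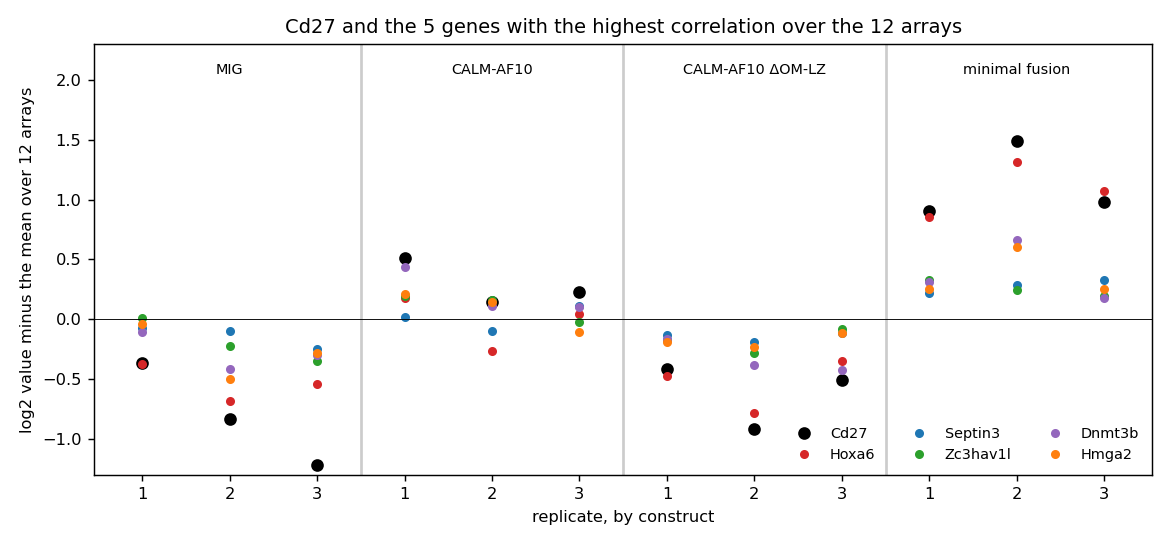
Log2 value minus the gene's mean over the 12 arrays (vertical axis) for Cd27 (large black points) and the 5 genes with the highest correlation with it, by construct and replicate (horizontal axis). For Cd27, Hoxa6, Septin3 and Hmga2 the 3 minimal fusion arrays are the highest of the 12, and Cd27 has the widest range, 7.65 to 10.36.

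Flt3 was most like Tet1 (r = 0.91), which encodes an enzyme that oxidises methylated DNA, and Cd34 most like Rras2 (r = 0.94), a RAS-family gene. Slamf1 was most like Mrgprb1 (r = 0.95), a G protein-coupled receptor gene, and Tek most like Cacnb4 (r = 0.99), a calcium channel subunit gene. Cacnb4 read 8.09 in MIG replicate 3 and 5.22 to 6.40 in the other arrays. Cd93 was most like Apobec1 (r = 0.98), Cd48 most like Deptor (r = 0.89) and Procr most like Ube2e1 (r = 0.86).

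Around Cd27 on its chromosome, 10 neighbouring genes, 5 on each side in the RefSeq annotation, were measured as well. Their differences between the minimal fusion and MIG ran from −0.03 for Scnn1a to 0.43 for Tapbpl, with 9 higher and 1 lower and a median of 0.26, against 0.01 over all genes. Limma called 0 of the 10 (0.0342% of probe sets), and groups did not overlap for 2, Vamp1 and Plekhg6, both higher (6.08% of probe sets). The TNF receptor genes among them, Ltbr and Tnfrsf1a, stood 0.42 and 0.29 higher (adjusted p = 0.689 and 0.887).

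No gene of 17 other lists passed in any of the 7 comparisons by limma, out of 226 genes measured, while 27 had an unadjusted p under 0.05 between the minimal fusion and MIG (11.9%, against 7.61% of all probe sets). The CD27 ligand gene Cd70 stayed at 5.42 to 5.82 and differed by 0.01 between these groups. Of 17 measured genes of CD27 signalling 6 stood higher and 11 lower, with a median of −0.15. Tnfaip3, an NF-κB inhibitor that NF-κB itself induces, stood 0.99 lower (SE 0.29, adjusted p = 0.464) and Birc3, an inhibitor of cell death, 0.51 lower (adjusted p = 0.575). Of 23 other TNF receptor genes 14 stood higher and 9 lower, with a median of 0.01, and the costimulatory receptor gene Tnfrsf9 stood 1.87 lower (adjusted p = 0.497), with MIG replicate 3 at 10.5 against 8.16 and 8.04 in the other MIG arrays.

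Among 23 ligands and partners of the 9 proteins the median difference was 0.01. The thrombin receptor gene F2rl3 stood 0.72 higher (SE 0.15, adjusted p = 0.294) and its relative F2rl2 1.41 lower (adjusted p = 0.568), while Tie1, the partner of TEK, stood 0.47 higher (adjusted p = 0.569). In the SLAM family locus, which holds Slamf1 and Cd48, the other 7 genes had a median of −0.06, with Cd84 1.04 lower (adjusted p = 0.615) and Cd244a, the receptor for CD48, 0.20 higher (adjusted p = 0.923). In the LY6 locus around Ly6a, 13 genes had a median of 0.03, with Ly6i 0.89 lower and Ly6f 0.27 higher (both adjusted p = 0.71). Ly6i read 8.07 in MIG replicate 2 and 6.07 and 6.15 in the other MIG arrays. LY6 genes are close relatives, so their probe sets may read each other.

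None of 18 other stem cell surface markers passed. With the minimal fusion 6 stood higher than with MIG and 12 lower (median −0.18). Robo4 and Jam3 had the highest statistics and stood 0.12 and 0.10 higher (adjusted p = 0.855 and 0.864). Esam, an adhesion gene of stem cells, stood 0.45 lower (adjusted p = 0.664) and Cd9 0.54 lower (adjusted p = 0.71). Of 16 markers of committed progenitors 5 stood higher and 11 lower (median −0.42). Fcgr2b, an Fc receptor gene, stood 0.59 lower (adjusted p = 0.415), and Il5ra and Cd24a each 0.11 higher (adjusted p = 0.829 and 0.901). T and NK cell genes had a median difference of 0.05 over 17 genes, B cell genes 0.01 over 11 and dendritic cell genes 0.14 over 12, including Flt3 itself. The mean level of T and NK cell markers was 5.54 to 5.70 in MIG and 5.62 to 5.82 in minimal fusion arrays, and that of B cell markers 5.66 to 5.79 and 5.65 to 5.84. Fibroblast genes, which the GFP+E86 producer cells could bring and a GFP sort might not remove, had means of 6.81 to 7.09 and 6.69 to 6.91 over 15 genes. Genes of the maturing lineages stood lower with the minimal fusion than with MIG in most cases, with 0 called. This held for 11 of 12 mast cell genes (median −0.94), 10 of 11 megakaryocyte genes (median −0.81) and 11 of 12 monocyte and macrophage genes (median −0.57). It held for 10 of 14 neutrophil genes (median −0.37) and 7 of 9 erythroid genes (median −0.29). The mean erythroid level was 6.38 to 6.68 in minimal fusion arrays and 6.48, 6.65 and 7.61 in MIG arrays, so MIG replicate 3 alone lay above that range. Mast cell means were 8.61 to 9.23 against 9.21, 9.68 and 11.55 in MIG, and megakaryocyte means 7.69 to 8.06 against 8.17, 9.22 and 9.26. The mean monocyte and macrophage level was 7.74 to 7.88 in minimal fusion arrays and 8.29, 9.39 and 7.91 in MIG arrays, and the mean neutrophil level 9.39 to 10.02 and 9.58 to 10.44. Against CALM-AF10 ΔOM-LZ, 12 of 12 monocyte and macrophage genes stood lower (median −1.13) and 10 of 14 neutrophil genes (median −0.97). The part of these lineages in the values of Cd27, Flt3 and the other members was not tested.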

How the data were processed

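RNA of 12 samples, 3 for each of 4 constructs, was measured on Affymetrix arrays. Every deposited value is the log2 intensity of 1 probe set on 1 array. The submitters' processing notes name Expression Console; its version and how it normalized are not given in the sources. The values were used as deposited. Of 35556 probe sets, 21789 carried 1 gene symbol in the platform annotation, 1621 several and 12146 none. The 23410 with a symbol were fitted together with limma 3.58.1 in R 4.3.3 (lmFit, eBayes), with 1 mean per construct, 8 residual degrees of freedom and 7 comparisons. P-values are two-sided and adjusted by Benjamini-Hochberg over those probe sets, with a threshold of 0.05, and the number of arrays limits the precision. The fit was tested on simulated data with independent noise in each array. At a log2 change of 1 in the minimal fusion arrays, 34 of 50 changed probe sets passed against MIG. At changes of 1.5 to 3, 47 or 48 of 50 passed. Deviations shared by same-numbered arrays were not simulated.

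The members and the gene lists were chosen with earlier results of these data known. Named genes are the members, up to 4 genes of each list with the highest and lowest moderated statistics between the minimal fusion and MIG, the genes most correlated with each member (5 for Cd27, 3 for the others, of which the first is named), and the neighbours of Cd27. Cd70, Cd244a, Kit, Mpo, Cd3e, Ncr1, Cdh5, Nkg7, Pecam1, Eng, Erg and Fcer1a beside the Tek values are named outside that rule, for their roles. Same-numbered arrays of CALM-AF10 and CALM-AF10 ΔOM-LZ deviated together from their group means (r = 0.63 to 0.79 over genes), and in no other pair of constructs did all 3 exceed 0.1. This pairing was read from the values, since the labels give only numbers. Alternatives were other normalizations, variance models, probe set choices, a replicate block and leaving out each array.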

Additional observations from a re-analysis of the deposited data

How the results depend on the processing

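Counts of called members that include Cd27 where its choice used the arrays are given for their size alone. Between the minimal fusion and MIG the count of 1 became 0 with the replicate block or the compared arrays alone, and 0 to 1 without 1 array; it was 0 without any array except MIG replicate 1, CALM-AF10 replicate 2 or CALM-AF10 ΔOM-LZ replicate 2. The Cd27 difference ran from 1.73 to 2.15 without 1 array. Between the minimal fusion and CALM-AF10 ΔOM-LZ the count of 0 became 1 with trend and robust variance, the mean of probe sets, all probe sets, or brighter probe sets alone, and 0 to 1 without 1 array, being 1 without MIG replicate 1 or 3. For OM-LZ arrays against the rest the count of 1 became 0 with median centring or the replicate block, and 0 to 1 without 1 array, being kept at 1 without MIG replicate 1 or CALM-AF10 replicate 2. The other 4 pairs kept 0 throughout. For CALM-AF10 against CALM-AF10 ΔOM-LZ, where the replicate numbers pair the arrays, Cd27 kept a difference of 0.75 to 1 without 1 array, and a replicate block on those 6 arrays, chosen after seeing the data, gave an adjusted p of 0.193 (Flt3 also 0.193). Among members the block changed no other call. Of the single members' differences, Tek against MIG moved by more than 1 SD without MIG replicate 3. Tek was too dim for the filter on brightness. The causes were not tested.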

Other observations

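None of the 28 pairs of members correlated past the threshold over the 12 arrays, either in the log2 values or after the construct means were removed, with Benjamini-Hochberg adjustment over the 28. The strongest pairs within constructs were Slamf1 with Tek (r = 0.84) and Flt3 with Cd93 (r = 0.83). An exact test that permuted 1 gene's deviations within each construct, in all 1296 ways, gave p = 0.00772 and 0.00386, and an adjusted p of 0.108 for both. On the log2 values Slamf1 and Tek gave r = 0.82 and rho = 0.48 (permutation p = 0.00308 and 0.121, adjusted p = 0.0862 and 0.415). For this pair r was 0.46 without the 2 arrays farthest from the median of Slamf1 and 0.56 without MIG replicate 3. Flt3 and Cd93 gave r = 0.34 and rho = 0.28 (permutation p = 0.274 and 0.378, adjusted p = 0.589 and 0.623), and r = −0.04 without the 2 farthest arrays. Cd27 and Flt3, which had the same order of construct means, gave r = 0.75 and rho = 0.69 on the log2 values. Their r was 0.18 after the construct means were removed.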
